A study of Mus musculus with 6 samples.

Results

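Transcripts of 10 genes of the collecting duct principal cell, which carry out or regulate the reabsorption of water and sodium, were compared between kidneys of homozygous mutant and wild-type mice. The genes were chosen by name (Aqp2, Aqp3, Aqp4, Avpr2, Scnn1a, Scnn1b, Scnn1g, Hsd11b2, Kcne1 and Fxyd4), and where several probes carried a gene's symbol, the probe with the highest mean over all 6 arrays stood for it. All 10 had a probe annotated with exactly 1 symbol, 11 probes in all because Aqp4 had 2, and all 10 were among the 14817 genes tested. The arrays held kidney RNA of 3 mice homozygous for a mutation, whose sample titles call them KO, and of 3 wild-type mice, with 1 array per animal and a different animal for each array. Each sample was a piece of a kidney that had been perfused with buffered saline and frozen, and the description names neither cortex nor medulla. No source used here gives the mutated gene, the strain, the sex or the age of the mice, so the genotype labels could not be checked against the mutated transcript.

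The principal cell is the cell of the collecting duct through which vasopressin sets the water content of the urine and aldosterone sets its sodium content. Vasopressin binds the V2 receptor, encoded by Avpr2, and the cyclic AMP that follows moves the water channel aquaporin 2 to the apical membrane and raises transcription of its gene, Aqp2. Water then leaves the cell through aquaporins 3 and 4 of the basolateral membrane. Sodium enters through the epithelial sodium channel ENaC, built of alpha, beta and gamma subunits (Scnn1a, Scnn1b and Scnn1g), under the mineralocorticoid receptor. The enzyme encoded by Hsd11b2 protects that receptor by inactivating glucocorticoids. Fxyd4, also known as CHIF, is a small membrane protein that modulates the sodium pump, and Kcne1 is an accessory subunit of the Kcnq1 potassium channel that has also been described in the mouse proximal tubule.

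The promoters of the vasopressin receptor gene and of its best-known target gene are shown because both genes are read below at the start of the water pathway. Of the 10 genes, 6 had an entry in the RefSeq promoter table (GRCm38.p6), each running from 250 bases before to 50 bases after the annotated start. Capitals mark matches, on either strand, to the cyclic AMP response element core TGACGTC, the steroid receptor motif TGTTCT and the GATA motif AGATAA. These matches are a description of letters and not of binding.
Aqp2, chr15:99578806-99579105, plus strand: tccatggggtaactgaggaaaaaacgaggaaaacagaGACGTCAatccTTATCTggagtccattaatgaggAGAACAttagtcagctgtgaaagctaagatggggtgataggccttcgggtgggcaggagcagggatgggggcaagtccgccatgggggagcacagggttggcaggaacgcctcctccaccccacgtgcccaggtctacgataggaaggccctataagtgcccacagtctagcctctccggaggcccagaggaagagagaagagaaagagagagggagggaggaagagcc
Avpr2, chrX:73891852-73892151, plus strand: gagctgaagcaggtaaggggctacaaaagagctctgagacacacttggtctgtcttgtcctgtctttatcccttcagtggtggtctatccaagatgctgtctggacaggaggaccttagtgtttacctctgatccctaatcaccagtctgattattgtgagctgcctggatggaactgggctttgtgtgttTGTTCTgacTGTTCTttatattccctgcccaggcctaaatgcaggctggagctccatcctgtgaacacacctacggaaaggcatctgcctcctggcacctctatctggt
The Aqp2 window held 1 match to each motif, all on the opposite strand. The response element core reads there as GACGTCA, from position -213 to -207 relative to the start. The Avpr2 window held 2 matches to TGTTCT and none to the other motifs. The windows of Aqp3, Fxyd4, Scnn1g and Scnn1b, the other genes with an entry, held no match to any of the motifs. The 2 windows shown are thus the only ones of the 6 with a match. Over all 32851 promoters of the same table, 3.2% held the response element core, 19.0% the steroid receptor motif and 11.2% the GATA motif, none of which overlaps another in these windows.

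Levels below are linear intensities as multiples of the array median, which is 1 on every array, and differences are mutant minus wild type in log2 units with the standard error of the limma fit and n = 3 arrays per genotype. The words rose and fell are kept for genes with an adjusted p under 0.05 over all probes tested. A low-signal limit of 1.51 times the array median stands in for a detection call. The chosen probe of each of the 10 genes lay above it on all 6 arrays, so all 10 were measurable in every kidney. Per array, 37.5% to 41.7% of probes exceeded that limit. A brightness depends on the probe as well as on the transcript, so levels are compared between animals and not between genes. In RNA of a piece of kidney, fewer principal cells, less RNA per cell and a different share of medulla in the piece cannot be told apart. Xist, transcribed from the inactive X of females, was at 7.98 times the array median in mutant replicate 1 and 4.64 in wild-type replicate 1, and below the low-signal limit on the other 4 arrays, where the Y-linked Eif2s3y lay between 8.05 and 11.0. Replicate 1 of each genotype therefore carries a female pattern, and the genotypes are balanced for it.

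Of the 10 genes, 1 rose in mutant kidney, 0 fell and 9 did not pass (limma with Benjamini-Hochberg adjustment). Over all genes tested, 7.26% passed, 5.67% as higher and 1.59% as lower in mutants, so 1 call among 10 genes is near the background. Counted as probes, 5.39% passed, 4.11% as higher and 1.27% as lower. The median difference of the 10 genes was 0.13, against 0.08 over all genes tested, and the median size of a difference regardless of sign was 0.16, against 0.31. At an unadjusted p under 0.05, 2 of the 10 genes and 20.8% of all genes passed. The differences were positive for 8 of the 10 genes, against 57.5% of all genes, and quantile normalization left 5 positive differences and cyclic loess 7. The groups did not overlap for 2 of the 10 genes, Aqp3 and Kcne1, both higher in mutants, against 26.7% of all genes measured on all 6 arrays (17.8% higher and 8.89% lower in mutants).

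**Figure D1:**
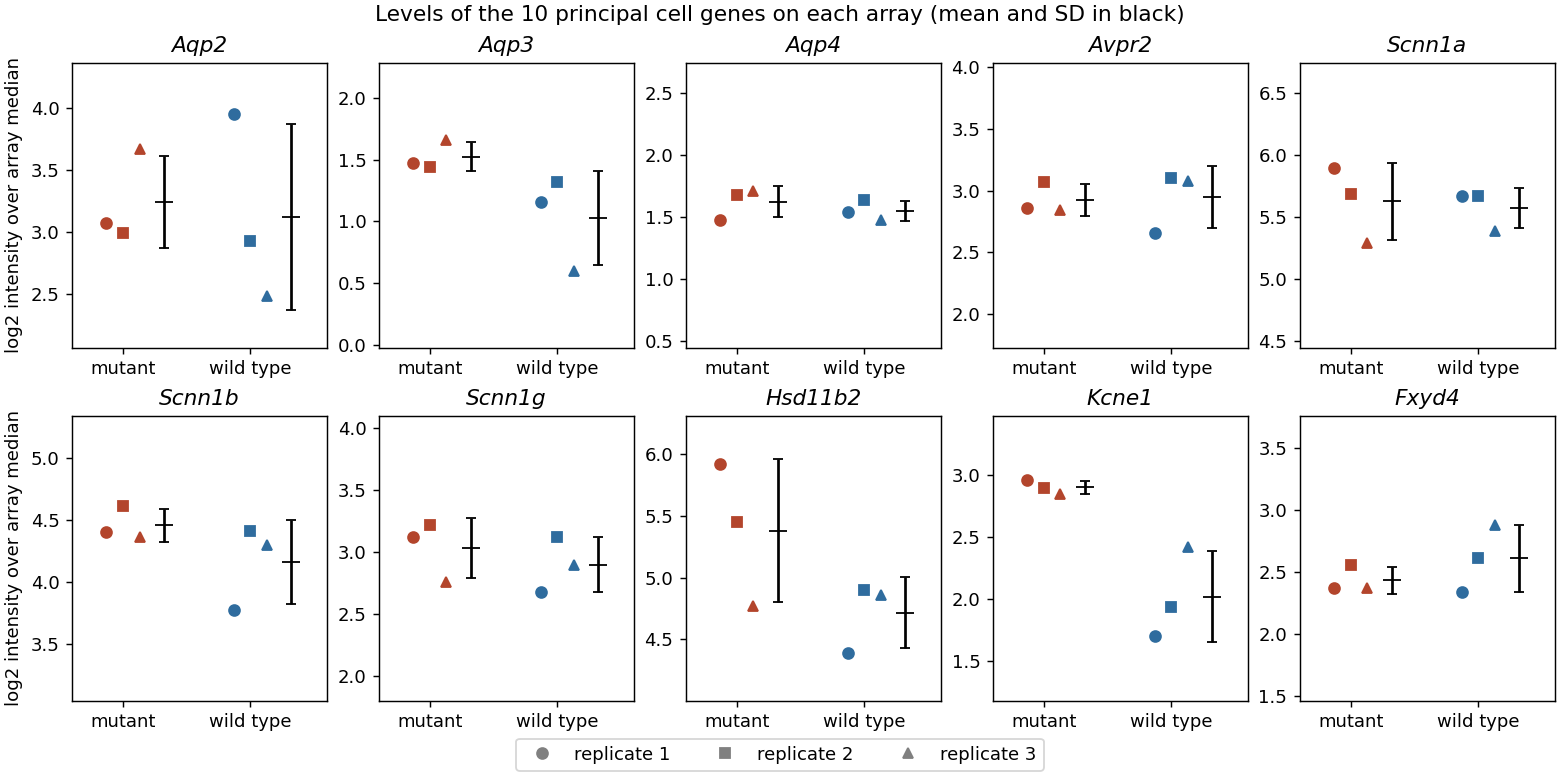
Level of each of the 10 genes on each array, as log2 intensity over the array median, with mutant arrays left and wild-type arrays right and the replicate number as the marker shape; black lines give the mean and SD of 3 arrays, and each panel spans the same range of log2 units. Kcne1 and Aqp3 are the panels in which no mutant array overlaps a wild-type array, and Aqp2 has the widest wild-type spread, with an SD of 0.75 log2.

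Kcne1 was the gene that rose. It was at 7.77, 7.46 and 7.22 times the array median in mutant kidneys, against 3.26, 3.83 and 5.36 in wild-type kidneys. All mutant values were above all wild-type values, and the mutants were closely grouped, with an SD of 0.05 log2 against 0.37 log2 in wild type. The difference was 0.88 ± 0.20 log2 units, or 1.84-fold, with a 95% interval of 1.36-fold to 2.49-fold (limma, adjusted p = 0.0200). The call did not survive the loss of most arrays: the adjusted p was 0.0532 without wild-type replicate 1, 0.0613 without wild-type replicate 2, and 0.0777, 0.0829 and 0.0609 without mutant replicates 1, 2 and 3, while it was 0.0106 without wild-type replicate 3. It was also 0.173 with no intensity trend in the variance and 0.112 when replicate 1 of both genotypes was left out, and the difference stayed between 0.70 and 1.08 over all 22 alternatives. Kcnq1, which encodes the channel that Kcne1 modifies, was at 5.47, 4.23 and 4.10 times the array median in mutants and at 4.05, 3.40 and 3.72 in wild type, without overlap but with a difference of 0.30 ± 0.21 that did not pass (limma, adjusted p = 0.529).

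The water channel genes did not pass. Aqp2, the apical channel, was at 8.43, 7.97 and 12.8 times the array median in mutants, against 15.4, 7.60 and 5.59 in wild type. The wild-type arrays spanned 1.46 log2 units and enclosed all mutant arrays. The difference was 0.13 ± 0.30, with a 95% interval of 0.702-fold to 1.70-fold (limma, adjusted p = 0.882), so changes within those bounds were not excluded. The wild-type SD of Aqp2 was 0.75 log2, and 2.77% of the 8560 genes with both genotype means above the low-signal limit had a larger one. The difference was negative without wild-type replicate 3 (-0.19) or mutant replicate 3 (-0.08) and after quantile normalization (-0.01). It was positive in 18 of the 22 alternatives and passed in 0. Without wild-type replicate 1 it was 0.54. With only replicates 2 and 3 of each genotype it was 0.63 (limma, adjusted p = 0.222), and both mutants then lay above both wild-type animals.

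The basolateral water channels lay differently. Aqp3 was at 2.78, 2.72 and 3.15 times the array median in mutants and at 2.23, 2.49 and 1.52 in wild type, with every mutant above every wild-type animal. Its difference of 0.50 ± 0.28, or 1.41-fold with an interval of 0.927-fold to 2.15-fold, did not pass (limma, adjusted p = 0.415). The value of 1.52 in wild-type replicate 3 lay just above the low-signal limit of 1.51, and without that array the Aqp3 difference was 0.29. Aqp4 was at 2.79, 3.19 and 3.28 in mutants and at 2.91, 3.12 and 2.78 in wild type, overlapping groups that differed by 0.07 ± 0.23 (limma, adjusted p = 0.921). The dimmer Aqp4 probe lay below the low-signal limit on all 6 arrays, at 0.900 to 1.13 in mutants and 0.482 to 0.638 in wild type, so no fold is given for it. Aqp4 is also the steadiest of the 10 genes in wild type, with an SD of 0.08 log2.

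Avpr2, the vasopressin receptor gene, was at 7.24, 8.42 and 7.18 times the array median in mutants and at 6.34, 8.55 and 8.44 in wild type. The mutants lay inside the wild-type range. The difference was -0.02 ± 0.17, with a 95% interval of 0.764-fold to 1.27-fold (limma, adjusted p = 0.972), the narrowest bounds on a change among the 4 genes of water transport.

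The 3 ENaC subunit genes did not pass. Scnn1a, the alpha subunit, was at 59.8, 51.8 and 39.1 times the array median in mutants and at 50.8, 51.0 and 42.1 in wild type, and the mutant arrays reached beyond the wild-type arrays on both sides. It differed by 0.05 ± 0.17, with an interval of 0.808-fold to 1.33-fold (limma, adjusted p = 0.923). Scnn1b, the beta subunit, was at 21.1, 24.4 and 20.6 in mutants and at 13.6, 21.2 and 19.7 in wild type. Wild-type replicate 1 stood below the other 5 arrays, which lay close together. The difference of 0.30 ± 0.17, with an interval of 0.958-fold to 1.58-fold (limma, adjusted p = 0.408), was 0.11 without that animal.

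Scnn1g, the gamma subunit, was at 8.70, 9.32 and 6.77 times the array median in mutants and at 6.40, 8.72 and 7.45 in wild type, with overlapping groups. It differed by 0.13 ± 0.18, with an interval of 0.840-fold to 1.43-fold (limma, adjusted p = 0.780). Scnn1g and Scnn1b are neighbouring genes in the RefSeq annotation of GRCm38.p6. Their log2 profiles, each centred on its own wild-type mean, differed by a root mean square of 0.18 over the 6 arrays, the third smallest value among the 45 pairs of the 10 genes. The pair Scnn1a and Scnn1b differed by 0.35. Genes that are not its neighbours lay as near to Scnn1g, namely Scnn1a at 0.19 and Avpr2 at 0.16.

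Hsd11b2, which keeps glucocorticoids off the mineralocorticoid receptor, had the second largest difference of the 10 genes and did not pass. It was at 60.4, 43.7 and 27.2 times the array median in mutants, against 20.9, 29.8 and 29.1 in wild type. Mutant replicates 1 and 2 stood above all wild-type arrays, and mutant replicate 3 lay within them. The difference was 0.66 ± 0.24, or 1.58-fold with an interval of 1.11-fold to 2.25-fold (limma, adjusted p = 0.149). The mutant SD of 0.58 log2 was large, since 3.71% of genes above the low-signal limit had a larger one. Without mutant replicate 3 the gene passed with a difference of 0.97 (limma, adjusted p = 0.0179), and without replicate 1 of both genotypes the difference was 0.23 (adjusted p = 0.654).

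Fxyd4, the sodium pump modulator, was at 5.16, 5.91 and 5.15 times the array median in mutants and at 5.06, 6.11 and 7.35 in wild type. It had the lowest difference of the 10 genes, -0.18 ± 0.19, with an interval of 0.669-fold to 1.17-fold (limma, adjusted p = 0.706). It stayed negative under all 22 alternatives and passed in none. Fxyd4 and Avpr2 were the pair of genes with the most alike profiles, with a root mean square of 0.14 log2.

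**Figure D2:**
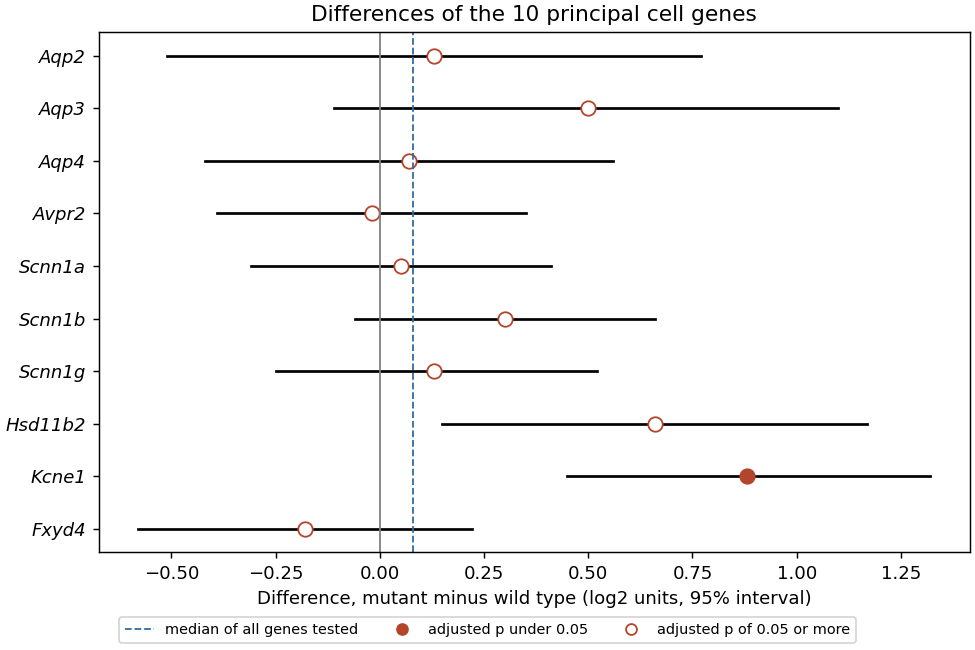
Difference of each of the 10 genes, mutant minus wild type in log2 units, with its 95% interval from the limma fit; the filled point passed an adjusted p of 0.05 and the dashed line marks the median of all genes tested (0.08). The intervals of Kcne1 and Hsd11b2 lie above 0, and those of the other 8 genes include 0.

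Array by array, the 10 genes did not share 1 pattern. In wild-type replicate 1, Aqp2 was the highest of the wild-type values, 0.83 log2 above the wild-type mean, while Scnn1b, Hsd11b2, Kcne1, Avpr2, Fxyd4 and Scnn1g were the lowest of theirs, by 0.39, 0.33, 0.32, 0.28, 0.27 and 0.22 below. In mutant replicate 3, Aqp2, Aqp3 and Aqp4 were the highest of the mutant values, and the other 7 genes were the lowest of theirs, by 0.61 below the mutant mean for Hsd11b2, 0.34 for Scnn1a, 0.27 for Scnn1g and 0.05 to 0.09 for Kcne1, Fxyd4, Avpr2 and Scnn1b. Aqp2 and Hsd11b2 were the most unlike pair, with a root mean square of 0.88 log2. Among 8559 other genes with both genotype means above the low-signal limit, the profiles most like that of Aqp2 over the 6 arrays were those of Zfp747, Pex5l and Med24, at 0.22, 0.24 and 0.25 log2. Of the other 9 genes, Aqp3 and Aqp4 came nearest to Aqp2, at 0.47 each. Zfp747, Pex5l and Med24 were picked as the smallest of 8559 distances, so their lying closer than the nearest of 9 genes carries no information.

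**Figure D3:**
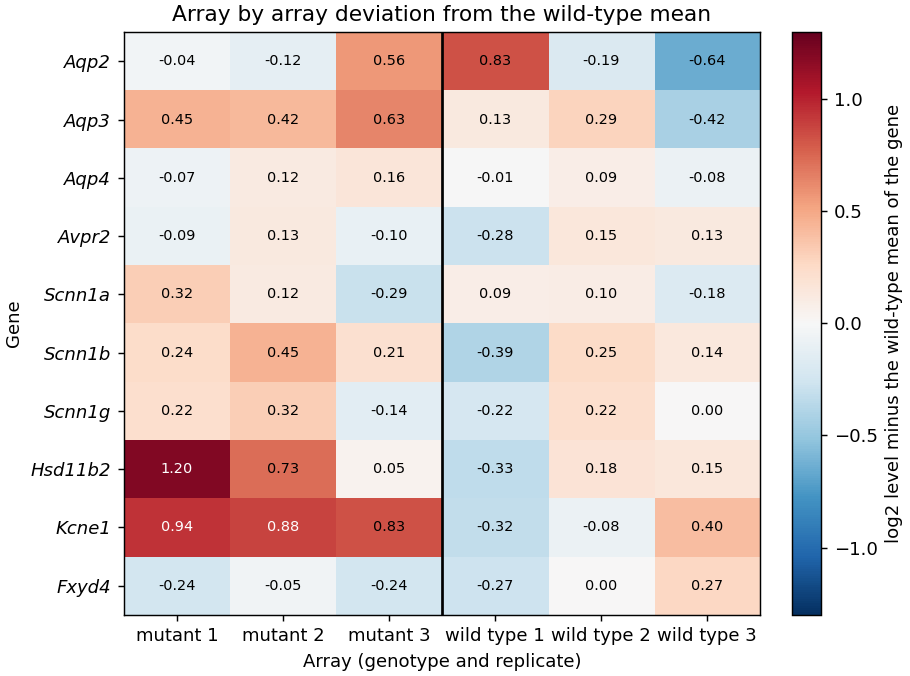
Log2 level of each gene on each array minus the gene's own wild-type mean, with mutant arrays in the left block and wild-type arrays in the right block (red higher, blue lower, values printed in the cells). The Kcne1 row is positive in all mutants (0.83 to 0.94), and the Aqp2 row runs from -0.64 to 0.83 within wild type.

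Other genes of the same pathways were read from 8 lists, in which 6 of 92 tested genes passed (6.52%), near the 7.26% over all genes. With no intensity trend, Edn1 and Kcnk6 were the only ones of these 6 that passed, and Gnb1, Stx4a, Fxyd1 and Aqp11 had an adjusted p of 0.277, 0.282, 0.0591 and 0.234. Of 14 vasopressin and cyclic AMP signalling genes tested, 1 rose and 0 fell, with a median difference of 0.30. The gene that rose was Gnb1, a G protein beta subunit, at 16.0, 18.0 and 17.6 times the array median in mutants and 7.89, 13.1 and 11.5 in wild type (0.70 ± 0.18, limma, adjusted p = 0.0357). It passed in only 1 of the 6 fits that left out an array, with an adjusted p of 0.0725 to 0.144 without any array except wild-type replicate 2. Adcy6, an adenylyl cyclase of the vasopressin response, differed by -0.05 ± 0.17 and did not pass. The Gnas probe, for the G protein alpha subunit that couples the receptor, was above the low-signal limit on 1 array and so gives no reading.

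Of 15 aquaporin 2 trafficking genes, 1 rose and 0 fell, with a median difference of 0.07. It was Stx4a, which encodes a membrane fusion protein, syntaxin 4, at 41.3, 36.9 and 36.4 times the array median in mutants and 21.0, 31.0 and 24.3 in wild type (0.60 ± 0.15, limma, adjusted p = 0.0350). Like Gnb1 it passed among the fits that left out an array only without wild-type replicate 2, with adjusted p of 0.0774 to 0.134 in the other 5. Rab11a, a small GTPase of recycling endosomes, and Myo5b, its motor protein, differed by 0.09 ± 0.15 and 0.12 ± 0.22 and did not pass.

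Of 19 aldosterone response and sodium channel regulator genes, 0 passed in either direction and 3 had an unadjusted p under 0.05, with a median difference of 0.09. Sgk1, the kinase that aldosterone induces, was at 15.4, 24.5 and 15.0 times the array median in mutants and 13.9, 18.6 and 16.0 in wild type, a difference of 0.15 ± 0.19. Nedd4l, the ubiquitin ligase that removes ENaC from the membrane, differed by 0.02 ± 0.16. Nr3c2, the mineralocorticoid receptor gene, was at 13.3 and 13.6 in the 2 mutants with a value and at 9.96, 11.1 and 11.1 in wild type, which did not pass (0.33 ± 0.16, limma, adjusted p = 0.318). Cnksr3, a scaffold for ENaC regulation, had the smallest p of the list and did not pass (0.51 ± 0.15, limma, adjusted p = 0.0794).

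Of 8 sodium pump and Fxyd family genes other than Fxyd4, 1 rose and 0 fell, with a median difference of 0.49. Fxyd1, which encodes phospholemman, was at 9.35, 11.0 and 9.50 times the array median in mutants and 3.79, 3.73 and 4.85 in wild type, a rise of 1.28 ± 0.18 (limma, adjusted p = 5.4e-04). It passed in all 6 fits that left out an array. Fxyd2, the pump modulator of more proximal segments, differed by -0.35 ± 0.27 and did not pass.

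Of 8 tubular potassium channel genes other than Kcne1, 1 rose and 0 fell, with a median difference of -0.03. Kcnk6 was at 3.42, 4.25 and 3.06 times the array median in mutants and below the low-signal limit on all wild-type arrays, which made it at least 2.35-fold higher (limma, adjusted p = 0.00521, and 0.0532 without mutant replicate 2). Kcnj1, the ROMK channel through which principal cells secrete potassium, was at 5.88, 4.15 and 5.86 in mutants and 5.41, 6.57 and 6.87 in wild type, a difference of -0.26 ± 0.20 that did not pass.

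Of 8 other aquaporin genes, 1 fell and 0 rose, with a median difference of -0.26. Aqp11, an intracellular aquaporin of the proximal tubule, was at 8.83, 8.22 and 9.92 times the array median in mutants and 11.6, 18.8 and 15.7 in wild type, and fell by 0.75 log2 units with a standard error of 0.18 (limma, adjusted p = 0.0234). It did not pass when any of 4 arrays was left out, namely wild-type replicates 2 and 3 and mutant replicates 1 and 2, with an adjusted p of 0.0753 to 0.113. Aqp5 is the next gene to Aqp2 in the RefSeq annotation, and Aqp6, an aquaporin of intercalated cells, follows it. They differed by 0.54 ± 0.32 and 0.15 ± 0.17 and did not pass.

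Of 8 prostaglandin, endothelin and purine signalling genes, 1 rose and 0 fell, with a median difference of 0.60. Edn1, which encodes endothelin-1, an inhibitor of sodium and water reabsorption in the collecting duct, was at 4.82, 4.59 and 3.49 times the array median in mutants and below the low-signal limit on all wild-type arrays. Its rise was at least 2.82-fold (limma, adjusted p = 8.4e-04), and it passed under all 22 alternatives. The endothelin B receptor gene Ednrb differed by -0.44 ± 0.31 and did not pass. Of 12 collecting duct transcription factor genes, 0 passed in either direction and 2 had an unadjusted p under 0.05, with a median difference of 0.43. The smallest p was that of Elf3, an epithelial factor, at 3.82, 2.97 and 3.19 in mutants and 1.32, 1.47 and 2.17 in wild type (1.03 ± 0.29, limma, adjusted p = 0.0594). Gata3, needed for the ureteric lineage from which the collecting duct forms, was at 12.7, 11.7 and 9.96 in mutants and 8.20, 8.49 and 8.11 in wild type and did not pass (0.46 ± 0.15, limma, adjusted p = 0.106).

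**Figure D4:**
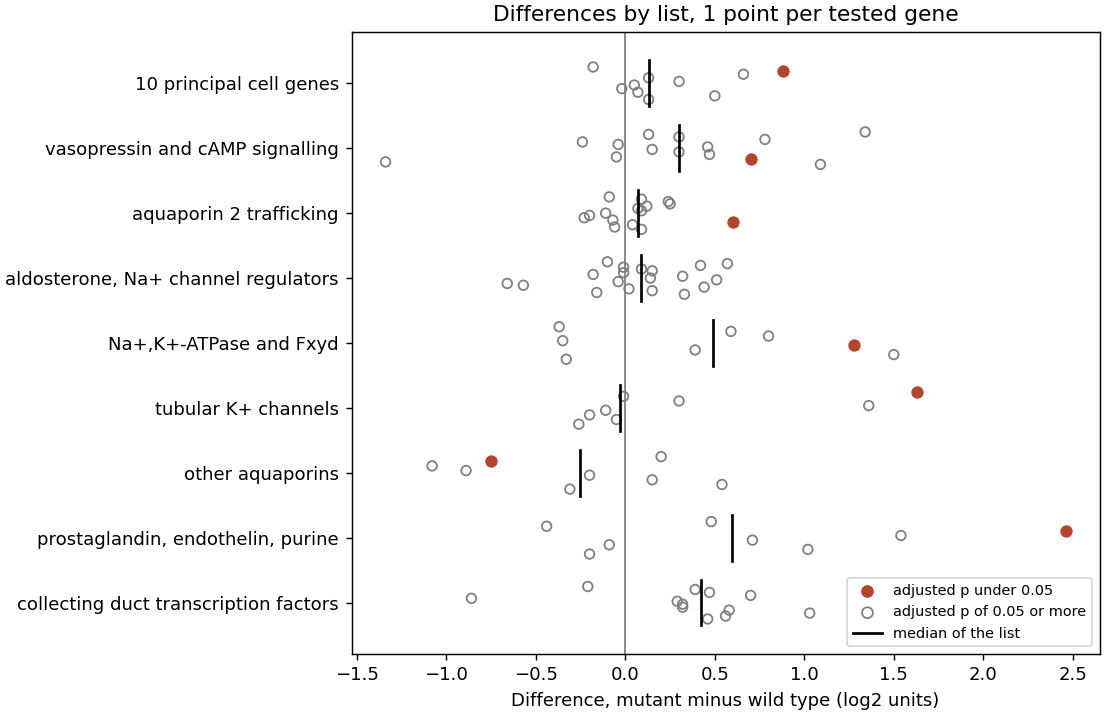
Difference, mutant minus wild type in log2 units, of each tested gene of the 10 principal cell genes and of 8 lists of related genes; filled points passed an adjusted p of 0.05 and black bars are list medians. Each row holds at most 1 filled point; those of Edn1 and Kcnk6 are fitted values against wild-type arrays below the low-signal limit, for which the text gives bounds of 2.82-fold and 2.35-fold.

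Markers of other cells in the same RNA were read from 9 further lists. Of 12 proximal tubule markers, 7 fell and 0 rose, and all 12 differences were negative. The summed level of the 12 was 593 to 632 times the array median in mutants and 1060 to 1330 in wild type. A sum gives most weight to the brightest probes, and Miox alone averaged 344 in mutants and 681 in wild type. Slc5a12 had no value in mutant replicate 1 and counted there as 0. Of the 7 genes that fell, 0 passed with no intensity trend (limma, adjusted p = 0.0811 to 0.272), and 3 passed without wild-type replicate 3. Without mutant replicate 2, 6 of them were still tested and 2 passed, and without mutant replicate 3, 6 were tested and 4 passed. Of 9 fibroblast markers, 8 rose and 0 fell (sums of 414 to 469 in mutants and 94.8 to 145 in wild type), and 5 of these 8 passed with no intensity trend. Of 8 macrophage markers, 5 rose and 0 fell (119 to 167 in mutants and 27.4 to 33.1 in wild type), while Adgre1, the macrophage marker F4/80, was below the low-signal limit on all 6 arrays. The fibroblast and macrophage sums were higher in mutants, as Kcne1 was, and the proximal tubule sum was lower. The part of any of them in the rise of Kcne1 was not tested.

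Markers of the neighbouring tubule segments, which share the distal nephron with the principal cell, gave 1 call per list. Of 11 intercalated cell markers, 1 fell and 0 rose (sums of 234 to 254 in mutants and 245 to 279 in wild type). It was Car12, with an adjusted p of 0.0577 to 0.202 without any array except wild-type replicate 1. Of 7 thick ascending limb markers, 1 fell, Egf, and 0 rose (342 to 412 in mutants and 395 to 480 in wild type). Of 8 distal convoluted and connecting tubule markers, 1 fell, Pvalb, and 0 rose (699 to 988 in mutants and 777 to 1060 in wild type). In that order, the lists had median differences of 0.06, 0.38 and -0.03. Positive differences numbered 7 of 11, 5 of 7 and 3 of 8. With no intensity trend the adjusted p was 0.261 for Car12, 0.0896 for Egf and 0.150 for Pvalb, and Pvalb also missed the threshold when replicate 1 of both genotypes was left out (limma, adjusted p = 0.0572).

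Markers of the medulla bear on the sampling, since the share of medulla in a piece of kidney sets how much collecting duct it holds. Of 7 such markers, 1 rose and 0 fell (52.3 to 64.4 in mutants and 40.6 to 53.5 in wild type). Their differences were positive for 4 and negative for 3, with a median of 0.01. Cryab, the brightest of them, averaged 31.8 in mutants and 25.3 in wild type and did not pass. The gene that rose was the tight junction gene Cldn4, at 9.89, 7.43 and 7.71 times the array median in mutants and 3.68, 3.98 and 4.09 in wild type (1.08 ± 0.18, limma, adjusted p = 0.00255, and 0.0792 with no intensity trend). Slc14a2, which encodes the urea transporter of the inner medullary collecting duct, was below the low-signal limit on all arrays. Of 7 urothelial markers, 2 rose and 0 fell, Krt20 and Krt5 (sums of 34.5 to 40.7 in mutants and 19.9 to 22.1 in wild type). Krt20 alone averaged 15.8 in mutants and 0.927 in wild type, so the gap between the sums lies mostly in that gene. No tested uroplakin gene passed, and Upk1b and Psca had negative differences (-0.36 and -0.19), against 5 positive ones in the list. Missing values counted as 0 in the sums, namely Upk1b in mutant replicate 1 and Psca in wild-type replicate 3. Krt5 did not pass when wild-type replicate 3, mutant replicate 1 or mutant replicate 3 was left out (limma, adjusted p = 0.0599 to 0.0984) or with no intensity trend (0.0850). Of 2 adrenal cortex markers tested, 0 passed in either direction and 0 had an unadjusted p under 0.05, and 1 of their 12 values lay above the low-signal limit. The summed level of the 10 principal cell genes was 184, 165 and 132 in mutant kidneys and 127, 142 and 129 in wild-type kidneys.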

How the data were processed

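Kidney RNA of 6 mice was labelled with biotin and hybridised to single-colour CodeLink oligonucleotide arrays, per the labels' protocols. The authors deposited 1 linear intensity per probe and array for 34937 probes. Medians of 0.994 to 0.997 and some negative values, read from the table, show subtraction of background and division by an array-wide level. No source used here names the software.

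Each array was divided by its median. Values of 0 or less were made missing, a floor was set at the 10th percentile of positive values (0.290), and log2 was taken. Probes with values on at least 2 arrays of each genotype were kept and the lowest 25% by mean level left out, which left 25834. The comparison used limma 3.58.1 (R 4.3.3; lmFit, eBayes with intensity trend, two-sided), adjusted over all probes by Benjamini-Hochberg, of which 1063 passed as higher and 329 as lower in mutants. After quantile normalization these were 880 and 551, and after cyclic loess 938 and 554. The code was tested on simulated data. Symbols came from the platform annotation, updated through RefSeq (GRCm38.p6), and a gene's brightest tested probe stood for it. The low-signal limit is the mode of the linear values (0.524) plus 3 times the spread below it (0.330). Where all arrays of a genotype lay below it, the fold is a bound, the other genotype's mean divided by the limit. Summed levels of a list counted a missing value as 0.

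The 10 genes and the lists were chosen with earlier results of these data known. Named list genes were those past the threshold, up to 4 per list by smallest p, and some others of known role chosen after their values were seen. The 3 genes nearest to Aqp2 were taken by root mean square distance. Alternatives covered scaling, low values, filters, variance models, array weights, a replicate block, thresholds, probe choice and leaving out arrays. The main fit did not pair the animals by replicate number. Same-numbered arrays had correlations of 0.0719, 0.0199 and 0.0699 between their deviations from the group means. Such small values cannot decide whether the numbers pair animals, and replicate 1 of both genotypes carried the female pattern.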

Additional observations from a re-analysis of the deposited data

How the results depend on the processing

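The number of the 10 genes that rose was 1, and it was 0 with no intensity trend, with only replicates 2 and 3 of each genotype, and at an adjusted p of 0.01. With arrays left out in turn it was 0 to 1, and without mutant replicate 3 the gene that passed was Hsd11b2 and not Kcne1. The number that fell was 0 under all 22 alternatives, and no other of the 10 genes than Kcne1 and Hsd11b2 passed under any of them. Over all probes, 179 rose and 12 fell with no intensity trend, 630 rose with only replicates 2 and 3, 563 rose and 115 fell at an adjusted p of 0.01, and 513 fell at 0.10. Probes that fell numbered 551 after quantile normalization and 554 after cyclic loess, which centre the median difference of all genes at -0.01. With arrays left out in turn, 589 to 1026 probes rose and 154 to 325 fell. A replicate block gave 1367 and 489 and changed no call among the 10 genes (Kcne1, adjusted p = 0.0104). Differences near 0 changed sign without passing. Quantile normalization gave -0.01 for Aqp2, -0.07 for Aqp4 and -0.01 for Scnn1g, and cyclic loess gave -0.09 for Aqp4. Only replicates 2 and 3 gave -0.04 for Scnn1a and -0.02 for Scnn1g. With arrays left out in turn, the difference ran from -0.19 to 0.54 for Aqp2, from -0.16 to 0.05 for Avpr2 and from -0.09 to 0.22 for Scnn1a. The causes of these shifts were not tested. With 3 arrays per genotype the standard error of the 10 differences was 0.17 to 0.30 log2, and changes within their intervals were not excluded.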
